A study of Mus musculus with 60 samples.

Results

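A set of 10 genes of the Polycomb repressive complexes, called members here, was followed in mouse embryonic stem cells (mESCs) in which factors of histone recycling at the replication fork were depleted or mutated. They were Ezh1, Ezh2, Eed, Suz12, Jarid2 and Mtf2 of Polycomb repressive complex 2 (PRC2) and Rnf2, Ring1, Cbx2 and Cbx7 of Polycomb repressive complex 1 (PRC1). The members were chosen by gene symbol, and all 10 were found among 55487 genes counted in 60 RNA-seq libraries of 20 groups, with 3 libraries per group. All cells were E14JU mESCs in which POLE4, a leading strand recycling factor, was fused to a dTAG degron. Ctrl cells received DMSO and dPOLE4 cells received dTAG, which removes the tagged protein. Both treatments were applied in the POLE4-dTAG line with intact MCM2, called WT here, and in 1 line with the histone-binding mutation of MCM2 (genotype POLE4-dTAG, MCM2-2A clone 2), called Ctrl MCM2-2A and dPOLE4 MCM2-2A. Cells were collected in serum and LIF after 24 h of treatment (T0) or, in a separate experiment, after 96 h of treatment. Other cells were moved after the 24 h of treatment to medium with retinoic acid (RA) and without LIF. They were collected after a further 12 h (T12), 24 h (T24) or 60 h (T60). In changes called RA responses here, the addition of RA and the removal of LIF cannot be told apart. Because each background was a single line, a difference between backgrounds and a difference between clones cannot be told apart.

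Polycomb complexes keep developmental genes silent. In PRC2, EZH2 or its paralogue EZH1 methylates H3K27, EED binds the mark and stimulates the enzyme, and SUZ12 holds the core together, while JARID2 and MTF2 help to bring the complex to CpG islands. In PRC1, RNF2 (RING1B) or RING1 (RING1A) ubiquitinates H2A, and chromobox proteins such as CBX2 and CBX7 bind H3K27me3. In mESCs, CBX7 is the chromobox protein known for maintaining the pluripotent state, and exchange of chromobox subunits accompanies differentiation.

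The promoters of the members differed in sequence, and a relation to their RA responses was not tested. RefSeq (GRCm38.p6) listed promoters for 9 of the 10 members, all but Cbx2. In the 250 bases before the start, Suz12 held 37 CpG dinucleotides, Ring1 held 30 and Eed held 12, against a median of 6 over 32851 promoters. The letters GGGCGG (GC box, either strand) occurred in 6 of these 9 members and in 32.7% of all promoters, and CCAAT (either strand) occurred in 5 of 9 and in 33.8%. A member was counted when any of its listed promoters held the letters, whereas all promoters were counted one by one, so the units differ. Jarid2 and Mtf2 had 2 listed promoters each, and in both genes CCAAT lay in 1 of the 2. An E2F-type motif (either strand, TTCCCGC or TTGGCGC or TTCGCGC or TTGCCGC) occurred in Suz12 and in 7.89% of all promoters. The DR5 element bound by RA receptors (AGGTCA repeated after any 5 bases, either strand) occurred in 0 of 9 members and in 0.00913% of all promoters. Shown are the promoters of 2 PRC2 core genes that fell during RA and of Ring1, which rose, 5′ to 3′ up to the base before the start, with these motifs in capitals. The Suz12 window lies at chr11:79992856-79993105 (+ strand), that of Eed at chr7:89980977-89981226 (- strand) and that of Ring1 at chr17:34024681-34024930 (- strand). In the Eed window none of these letters was found.
Suz12: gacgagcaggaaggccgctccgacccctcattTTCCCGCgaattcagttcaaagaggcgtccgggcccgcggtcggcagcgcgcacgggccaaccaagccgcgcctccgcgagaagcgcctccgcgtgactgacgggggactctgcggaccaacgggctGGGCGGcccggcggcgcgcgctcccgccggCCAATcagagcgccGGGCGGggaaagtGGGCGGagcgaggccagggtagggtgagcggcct
Eed: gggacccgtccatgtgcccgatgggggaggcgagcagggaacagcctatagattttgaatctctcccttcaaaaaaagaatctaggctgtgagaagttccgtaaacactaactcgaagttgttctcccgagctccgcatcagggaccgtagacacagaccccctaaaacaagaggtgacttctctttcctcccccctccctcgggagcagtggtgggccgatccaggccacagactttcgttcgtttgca
Ring1: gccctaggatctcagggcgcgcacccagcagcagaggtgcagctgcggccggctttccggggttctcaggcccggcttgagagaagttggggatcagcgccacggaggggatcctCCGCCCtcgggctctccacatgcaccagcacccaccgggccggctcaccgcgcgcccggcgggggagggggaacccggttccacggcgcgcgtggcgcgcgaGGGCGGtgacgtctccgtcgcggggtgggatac

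Per library, between 10461077 and 46609151 reads were counted on genes and repeats in the 48 libraries of T0 and RA. The 12 libraries of 96 h held 7126100 to 23598266. Levels are given as normalised counts (CPM, scaled to the library total, mean ± SD of 3 libraries), and the libraries of the separate 96 h experiment were normalised apart. A gene was called DE (differentially expressed) when edgeR's quasi-likelihood test gave an adjusted p below 0.01 and a log2 fold change above 0.58 in size, over all features tested. All 10 members passed the filter on low counts in every comparison. Ezh1, Ring1 and Cbx2 overlap no other annotated gene, whereas the other 7 members do (among them Trmt1l at Rnf2, Tmed5 at Mtf2 and Apobec3 at Cbx7), and the strand setting of the counting is not given in the sources used here, so that reads shared with those genes cannot be told apart. RNA of Pole4 was 52.5 ± 2.28 CPM in Ctrl and 52.4 ± 4.92 CPM in dPOLE4 at T0, and dTAG acts on the protein. In the other line it was lower at T0, with 33.15 ± 1.03 CPM in Ctrl MCM2-2A and 31.32 ± 2.95 CPM in dPOLE4 MCM2-2A. RNA of Mcm2 was 497.3 ± 10.8 CPM in Ctrl and 310.9 ± 34.2 CPM in Ctrl MCM2-2A at T0. The cause of these line differences was not tested. The 7 pluripotency markers summed to between 2839 and 3275 CPM in all libraries at T0 and between 2784 and 3354 CPM at 96 h. In every group at T0 and 96 h the stem cell label held by these markers. At T60 their sum was 181.9 to 210 CPM in Ctrl and 194.7 to 220.4 CPM in dPOLE4. It was higher in the other line, at 415.8 to 532.1 CPM in Ctrl MCM2-2A cells and at 560.4 to 744.3 CPM with POLE4 depleted as well. None of these 7 genes had a mean below 1 CPM at T60. Other markers differed between the Ctrl lines at T0. In Ctrl and Ctrl MCM2-2A, early neural and RA response markers summed to 116.4 to 140.4 and 51.34 to 59.11 CPM. Primitive endoderm markers summed to 15.11 to 31.53 and 41.01 to 54.41 CPM, and fibroblast markers to 44.68 to 58.27 and 30.96 to 43.72 CPM. Sums of trophoblast and 2-cell-like markers overlapped. The part of these differences in later comparisons was not tested. In bulk RNA, fewer cells of a type and less RNA per cell cannot be told apart.

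In Ctrl stem cells the 4 most abundant members belonged to PRC2. Per length (RPKM), Suz12 led in Ctrl at T0 with 102 ± 0.567, followed by Jarid2 with 70.2 ± 3.21, Mtf2 with 57.9 ± 1.62 and Eed with 48.8 ± 0.583. Cbx7 with 33.8 ± 0.594, Rnf2 with 22.7 ± 0.521 and Ezh2 with 18.4 ± 0.480 came next, and Cbx2, Ezh1 and Ring1 were lowest with 11.5 ± 0.665, 6.63 ± 0.200 and 2.68 ± 0.263. Every neighbouring pair in this order was separated in all 3 libraries. The length was that of all annotated exons of a gene joined, and the order with other lengths was not tried. The order changed with RA and with the line. In Ctrl at T60, Suz12 (44.1 RPKM) and Cbx7 (32.1 RPKM) led, and Jarid2 (27.6 RPKM) and Cbx2 (27.1 RPKM) overlapped, as did Ezh2 (15.9 RPKM) and Eed (15.0 RPKM). In Ctrl MCM2-2A at T0, Jarid2 led (82.5 RPKM), and Suz12 (51.2 RPKM) overlapped with Cbx7 (53.3 RPKM).

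After 60 h of RA, 6 of 10 members were DE in Ctrl cells, a share near the 49.1% of all features. In Ctrl cells Eed, Suz12, Jarid2 and Mtf2 fell, Cbx2 and Ring1 rose, and the log2 fold changes of Ezh1, Rnf2 and Cbx7 lay between -0.08 and 0.03. These were 4 members lower and 2 higher at T60 against T0, where 22.8% of 19196 features were DE lower and 26.3% DE higher. Over the 4 kinds of cells and 16 comparisons between time points, 41 of 160 tests of members were DE, and the share of all features that was DE ran from 6.68% to 49.1%.

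**Figure D1:**
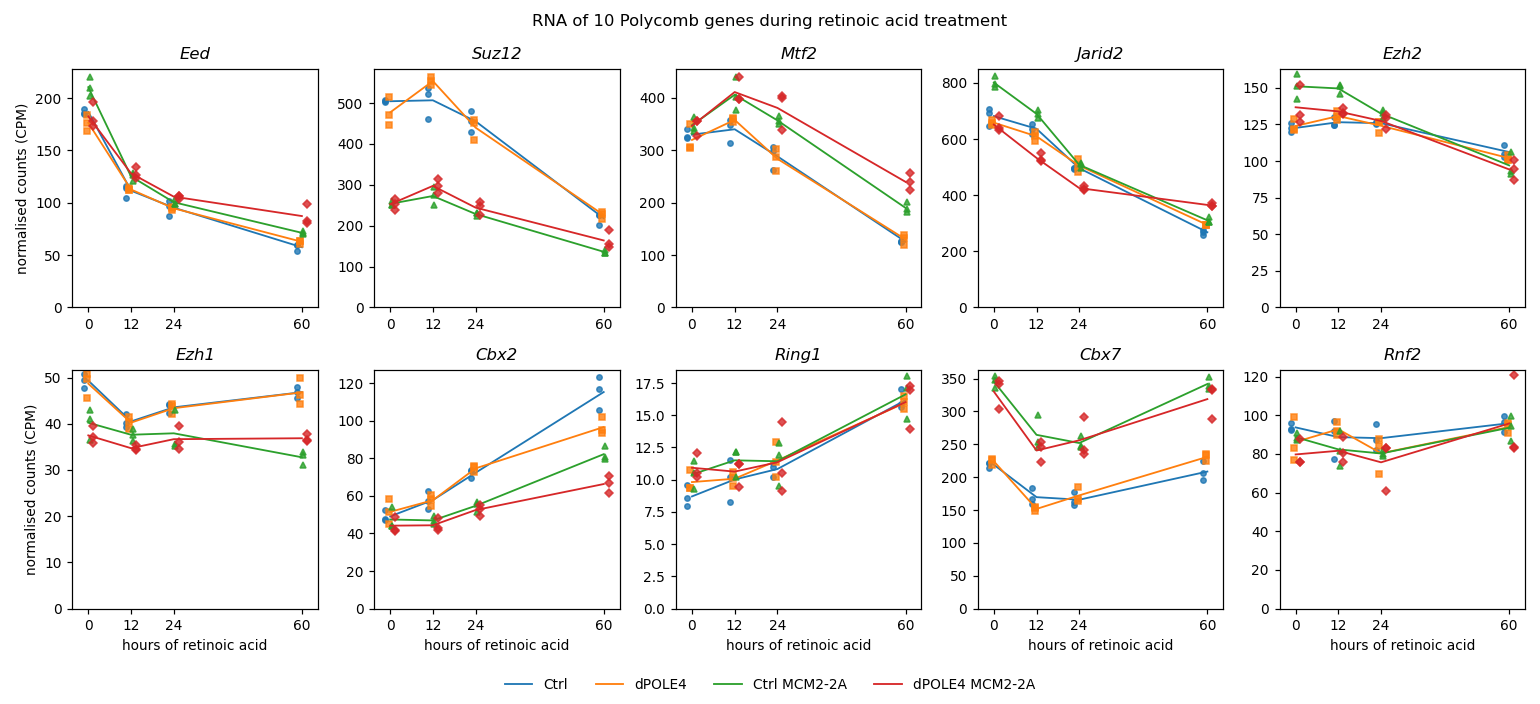
Normalised counts (CPM, y axis from 0) of the 10 members against hours of RA (x axis), with points for single libraries, shifted sideways by group, and lines through the means of 3 libraries in Ctrl, dPOLE4, Ctrl MCM2-2A and dPOLE4 MCM2-2A cells. Eed, Suz12, Mtf2 and Jarid2 fell in Ctrl, Cbx2 and Ring1 rose, and the 2 backgrounds part for Suz12 and Cbx7 at every time.

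Among PRC2 core genes, Eed (ENSMUSG00000030619, chr7:89954654-89980983, mm10 as for all positions given here) was the one DE at T12 in Ctrl. Its 3 libraries measured 185.1, 185.8 and 189.3 CPM at T0, 114.5, 104.3 and 115.9 CPM at T12, and 53.8, 59.4 and 59.31 CPM at T60 in Ctrl. No library of one time overlapped with the next of these. The log2 fold change was -0.75 already at T12 (SE 0.0622, adjusted p = 5.69e-08), where Eed was the single member DE in Ctrl and 11.3% of features were DE, and it reached -1.70 at T60 (SE 0.0665, adjusted p = 2.12e-13). In dPOLE4, Ctrl MCM2-2A and dPOLE4 MCM2-2A cells the fall from T0 to T60 was -1.49, -1.54 and -1.07, each DE. At T12 it was DE in dPOLE4 (-0.65) and Ctrl MCM2-2A (-0.74) but, at -0.51, not in dPOLE4 MCM2-2A, and 11.3%, 9.18% and 7.81% of features were DE there.

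Suz12 (ENSMUSG00000017548, chr11:79993106-80034123) was DE between T24 and T60 and not in the earlier intervals. Ctrl libraries measured 506.9, 501.4 and 504.9 CPM at T0 and 457, 429.4 and 479.7 CPM at T24, before they reached 200.8, 227 and 226.9 CPM at T60. The log2 fold change was 0.00 from T0 to T12, -0.16 from T12 to T24 and -1.05 from T24 to T60, and only the last was DE. All Ctrl T24 libraries lay below all T0 libraries. From T12 to T24 it was -0.33 in dPOLE4 (SE 0.0583, adjusted p = 0.000392), -0.27 in Ctrl MCM2-2A (SE 0.0583, adjusted p = 0.00173) and -0.29 in dPOLE4 MCM2-2A (adjusted p = 0.0304), under the size cutoff. From T0 to T60 it was -1.21 in Ctrl (SE 0.0672, adjusted p = 2.3e-11), -1.08 in dPOLE4, -0.87 in Ctrl MCM2-2A and -0.62 in dPOLE4 MCM2-2A, each DE. Without dPOLE4 MCM2-2A T60 replicate 2 the last was -0.55 and no longer DE.

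The methyltransferase pair moved less. Ezh2 (ENSMUSG00000029687, chr6:47530139-47595341) was 123 ± 3.20 CPM at T0 and 106 ± 4.56 CPM at T60 in Ctrl, which gave a log2 fold change of -0.21 (adjusted p = 0.00147) that was under the size cutoff. In Ctrl MCM2-2A cells Ezh2 fell from 151 ± 8.73 to 97.0 ± 8.08 CPM, a DE log2 fold change of -0.62 (SE 0.0609, adjusted p = 4.56e-08) that was -0.56 or -0.57 and not DE without Ctrl MCM2-2A T60 replicate 2 or 3. In dPOLE4 MCM2-2A cells it was -0.54 (adjusted p = 1.59e-05), not DE, and DE at -0.60 without T0 replicate 2 and at -0.59 without T60 replicate 3 of that group. Its paralogue Ezh1 (ENSMUSG00000006920, chr11:101191115-101226463) was 49.3 ± 1.49 CPM at T0 and 46.8 ± 1.13 CPM at T60 in Ctrl. At T12 its Ctrl libraries measured 42.12, 40.19 and 39.21 CPM, below all T0 libraries, and the log2 fold change from T0 was -0.29 in Ctrl (SE 0.0586, adjusted p = 0.00102) and -0.27 in dPOLE4 (SE 0.0637, adjusted p = 0.00253), under the size cutoff. From T0 to T60 its log2 fold change in Ctrl MCM2-2A was -0.28 (adjusted p = 0.00473). Per length, Ezh2 made up 73.5% ± 0.894 of the pair at T0, 77.7% ± 0.818 at T12 and 71.6% ± 0.837 at T60 in Ctrl.

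Both PRC2 accessory members fell. Jarid2 (ENSMUSG00000038518, chr13:44729474-44921643) stood at 646.5, 706.4 and 691.5 CPM at T0, between 493.4 and 497.7 CPM at T24, and at 270.1, 257.7 and 276.1 CPM at T60 in Ctrl. All T24 libraries lay below all T0 libraries and above all T60 libraries. The log2 fold change from T0 to T60 was -1.35 in Ctrl (SE 0.0522, adjusted p = 1.89e-13), -1.16 in dPOLE4, -1.35 in Ctrl MCM2-2A and -0.84 in dPOLE4 MCM2-2A, each DE. Mtf2 (ENSMUSG00000029267, chr5:108065674-108109004) measured 324.9, 340.6 and 324.3 CPM at T0 and 124.6, 125.8 and 126.3 CPM at T60 in Ctrl. Most of its fall lay between T24 and T60 (-1.19, the largest change of the members in that interval, where 35% of features were DE). From T0 to T60 it was -1.39 in Ctrl (SE 0.0651, adjusted p = 2.24e-12), -1.30 in dPOLE4 and -0.85 in Ctrl MCM2-2A, each DE. In dPOLE4 MCM2-2A it was -0.53 (adjusted p = 3.39e-05), under the size cutoff, and -0.58 and DE without dPOLE4 MCM2-2A T60 replicate 3.

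In PRC1 the 2 E3 ligases differed. Rnf2 (ENSMUSG00000026484, chr1:151458004-151500955) was 93.7 ± 2.15 CPM at T0 and 95.9 ± 4.01 CPM at T60 in Ctrl, with a log2 fold change of 0.03 (95% interval -0.13 to 0.19). Ring1 (ENSMUSG00000024325, chr17:34020792-34024680), the least abundant member, rose from 8.562, 7.926 and 9.612 CPM to 17.04, 15.63 and 15.84 CPM. Its log2 fold change was 0.90 in Ctrl (SE 0.122, adjusted p = 3.21e-06), 0.70 in dPOLE4 and 0.68 in Ctrl MCM2-2A, each DE. It was 0.56 in dPOLE4 MCM2-2A, not DE (adjusted p = 0.00368), and DE at 0.63 without T0 replicate 1 and at 0.65 without T60 replicate 3 of that group. Per length, Rnf2 made up 89.4% ± 1.11 of the pair at T0 and 82.3% ± 1.30 at T60 in Ctrl.

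The chromobox pair shifted toward Cbx2. Cbx2 (ENSMUSG00000025577, chr11:119022962-119031270) measured 47.91, 47.1 and 52.36 CPM at T0, between 69.77 and 73.92 CPM at T24, and 123.2, 105.7 and 117.2 CPM at T60 in Ctrl. All T60 libraries lay above all T24 libraries, which lay above all T0 libraries. The log2 fold change from T0 to T60 was 1.23 in Ctrl (SE 0.0717, adjusted p = 4.27e-11), 0.92 in dPOLE4, 0.81 in Ctrl MCM2-2A and 0.59 in dPOLE4 MCM2-2A, each DE. In dPOLE4 MCM2-2A the call was lost without T0 replicate 2 (0.55), T0 replicate 3 (0.54) or T60 replicate 2 (0.54). Cbx7 (ENSMUSG00000053411, chr15:79915807-79971119) dipped and returned. It measured 214.6, 221.6 and 220.8 CPM at T0, 166.1, 182.9 and 159.7 CPM at T12, and 205.8, 195.4 and 224.4 CPM at T60 in Ctrl. The log2 fold change from T0 to T12 was -0.38 in Ctrl, -0.56 in dPOLE4, -0.38 in Ctrl MCM2-2A and -0.46 in dPOLE4 MCM2-2A, each with an adjusted p under the threshold (the highest 0.00182) but under the size cutoff. That in dPOLE4 was -0.60 and DE without dPOLE4 T0 replicate 2, and -0.58 and DE without dPOLE4 T24 replicate 2, which entered the estimate of the spread. From T0 to T60 the log2 fold changes of Cbx7 lay between -0.07 and 0.05. Per length, Cbx7 made up 74.5% ± 1.04 of the pair at T0 and 54.3% ± 1.77 at T60 in Ctrl, 74.2% ± 2.22 and 61.1% ± 0.955 in dPOLE4, 82.7% ± 1.52 and 73.2% ± 1.06 in Ctrl MCM2-2A, and 83.1% ± 1.01 and 75.9% ± 0.582 in dPOLE4 MCM2-2A.

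**Figure D2:**
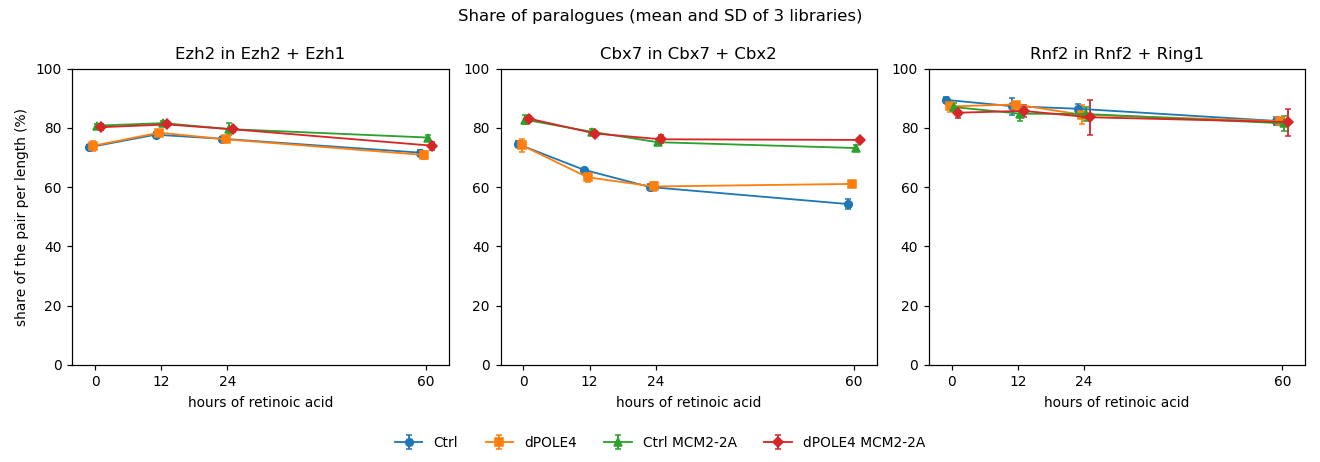
Share of one paralogue in the sum of the pair per length (%, y axis from 0 to 100) against hours of RA, as mean and SD of 3 libraries in the 4 kinds of cells. From T0 to T60 the share of Cbx7 fell from 74.5% to 54.3% in Ctrl and from 74.2% to 61.1% in dPOLE4. It fell from 82.7% to 73.2% in Ctrl MCM2-2A and from 83.1% to 75.9% in dPOLE4 MCM2-2A. The shares of Ezh2 and Rnf2 moved less.

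Between time points, DE calls of members fell mostly into the last interval. It ran from 24 h to 60 h of RA and was the longest, and the share of all features that was DE was highest there as well. From T12 to T24 none of the 10 members was DE in any kind of cell by edgeR, where between 6.68% and 8.83% of features were DE, although 4, 5, 3 and 1 members had an adjusted p below 0.01 in Ctrl, dPOLE4, Ctrl MCM2-2A and dPOLE4 MCM2-2A. Unadjusted p-values were below 0.05 for 5, 7, 6 and 4 members and for 36.9%, 37.4%, 41.5% and 34.7% of features, and DESeq2 called 0 as well. Over all features, 15.8%, 15.5%, 20.1% and 12.8% had an adjusted p below 0.01 at any size in this interval. From T24 to T60, 6 members were DE in Ctrl, 4 in dPOLE4, 4 in Ctrl MCM2-2A and 1, Mtf2 (-0.66), in dPOLE4 MCM2-2A, against 35%, 31.6%, 30% and 25.2% of all features. Several of these late calls lay near the size cutoff and were lost when 1 library was left out, with the adjusted p still below 0.01. The rise of Ring1 in Ctrl (0.59) was 0.54 without T24 replicate 3 and 0.55 without T60 replicate 1, the fall of Eed in dPOLE4 (-0.59) was -0.57 without T60 replicate 2, and the rise of Cbx2 in Ctrl MCM2-2A (0.61) was 0.56 without T24 replicate 3, none of them DE then. In the other direction, Ring1 in Ctrl MCM2-2A (0.56) was 0.66 and DE without T24 replicate 2 and 0.64 without T60 replicate 2. In dPOLE4 MCM2-2A, Suz12 (-0.57) was -0.63 and Ring1 (0.52) was 0.71 without T24 replicate 2, and they were -0.69 and 0.62 without T60 replicate 3, each DE then. At T60 against T0 the counts were 6 in Ctrl, 6 in dPOLE4, 7 in Ctrl MCM2-2A and 4 in dPOLE4 MCM2-2A, against 49.1%, 46.5%, 47% and 42% of all features. The count in dPOLE4 MCM2-2A moved with single libraries of that group. Without T60 replicate 3, Ezh2, Mtf2 and Ring1 were DE as well, and without T60 replicate 2, Suz12 and Cbx2 were no longer DE.

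**Figure D3:**
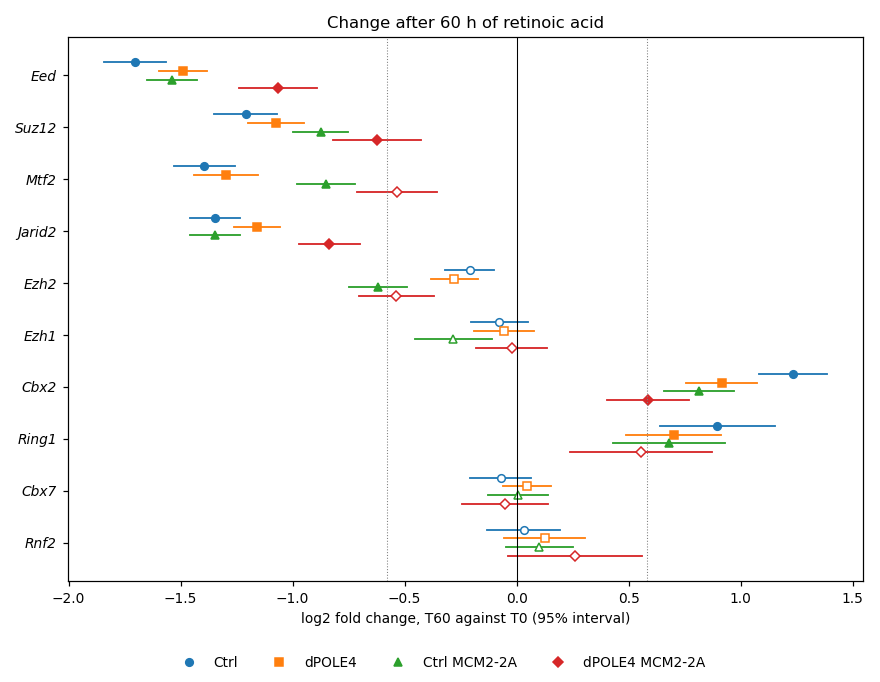
Log2 fold change of the 10 members at T60 against T0 (x axis) with 95% intervals, in 4 kinds of cells. Filled symbols are DE, open symbols are not, and dotted lines mark 0.58 in either direction. Eed lies between -1.70 and -1.07 and Jarid2 between -1.35 and -0.84, and Cbx2 lies between 0.59 and 1.23.

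Other Polycomb genes changed in both directions during RA, in counts to be read against the 26.3% of features DE higher and 22.8% DE lower in Ctrl. Of 8 other PRC2 genes, 3 were DE higher and 3 lower at T60 against T0 in Ctrl (median log2 fold change -0.16, against -0.01 over all features). The largest changes were those of Ezhip (2.48), an inhibitor of PRC2, Phf19 (-1.01), a paralogue of Mtf2, and Aebp2 (-0.77), a PRC2 cofactor. Of 23 other PRC1 genes, 10 were higher and 5 lower (median 0.49). Among these, the chromobox gene Cbx8 (2.73) rose and Phc1 (-2.54), a polyhomeotic subunit, fell. Of 12 antagonists, 2 were higher and 3 lower (median -0.34), led by Asxl3 (1.36) and Asxl2 (-0.67), cofactors of the H2A deubiquitinase BAP1, and Kdm6b (0.84), an H3K27 demethylase. Of 14 developmental genes known as Polycomb targets in mESCs, 12 passed the filter, of which 9 were higher and 2 lower (median 2.71), with the largest changes in the endoderm regulators Foxa2 (5.76), Sox17 (4.73) and Gata6 (4.73). In dPOLE4 MCM2-2A cells, 1 and 3 of the PRC2 genes, 10 and 5 of the PRC1 genes, 1 and 1 of the antagonists, and 10 and 0 of the developmental genes were higher and lower, where 42% of all features were DE.

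Differences in the RA response between cells were tested directly, and 0 members passed both thresholds in the 3 comparisons, while 3, 0 and 1 had an adjusted p below 0.01 for Ctrl MCM2-2A against Ctrl, dPOLE4 against Ctrl, and dPOLE4 MCM2-2A against Ctrl MCM2-2A. In Ctrl MCM2-2A against Ctrl, where 9.1% of features were DE for the difference in response, 0 members passed both thresholds and 5 had an unadjusted p below 0.05, as had 36% of features. DESeq2 called 0 as well. The difference of log2 fold changes was 0.52 for Mtf2 (SE 0.0808, adjusted p = 0.000142), toward a smaller fall in Ctrl MCM2-2A. It was -0.44 for Cbx2 (SE 0.11, adjusted p = 0.00724), toward a smaller rise, and -0.43 for Ezh2 (SE 0.0944, adjusted p = 0.00287), toward a larger fall. These 3 were under the size cutoff, and 12.9% of features had an adjusted p below 0.01 at any size. Without Ctrl MCM2-2A T60 replicate 3 the difference for Mtf2 was 0.59 and DE. In dPOLE4 MCM2-2A against Ctrl MCM2-2A, where 0.254% of features were DE, the difference for Jarid2 was 0.52 (SE 0.0842, adjusted p = 0.00723, which 0.27% of features reached at any size), toward a smaller fall, and 0 members were DE by edgeR or DESeq2 with 5 at an unadjusted p below 0.05 (12.4% of features). For Eed the difference was 0.48 (adjusted p = 0.0391). In dPOLE4 against Ctrl, where 0.0104% of features were DE, 0 members were DE or had an adjusted p below 0.01, 3 had an unadjusted p below 0.05 (13% of features), and the largest difference was that of Cbx2 (-0.31, adjusted p = 0.261). In the same T60 libraries the pluripotency markers were highest in dPOLE4 MCM2-2A and next in Ctrl MCM2-2A, the primitive endoderm markers (6 genes) summed to between 340.9 and 407.5 CPM in Ctrl, 571.3 and 636.4 in Ctrl MCM2-2A, and 442.9 and 491.2 in dPOLE4 MCM2-2A, and the fibroblast markers (4 genes) to between 327.1 and 454.3, 138.1 and 159.9, and 59.48 and 72.93 CPM. In the same order, early neural and RA response markers (7 genes) summed to between 656.5 and 818.4, 618.2 and 640.9, and 535.6 and 565.6 CPM, trophoblast markers (4 genes) to between 108.6 and 133, 185.8 and 217.6, and 223 and 297 CPM, and markers of 2-cell-like cells (4 genes) to between 153.5 and 204.7, 87.84 and 120.4, and 132.5 and 178 CPM. Their part in these differences was not tested.

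POLE4 depletion left the 10 members close to their controls in the WT background. Log2 fold changes of dPOLE4 against Ctrl lay between -0.24 and 0.17 over 5 times, and the widest 95% intervals reached from -0.37 to 0.41. In edgeR 0 of 50 tests were DE, 6 had an unadjusted p below 0.05 (among all features 11.6%, 6.42%, 7.6%, 14.3% and 12.3% at T0, T12, T24, T60 and 96 h), and DESeq2 called 0. Over all features, 0% were DE in edgeR at T0, T12, T24 and 96 h and 0.193% at T60. With the replicate number as a block, where same-numbered libraries deviated together, 6, 14 and 142 features were DE at T0, T24 and 96 h in place of 0, with 0 members among them. DESeq2 called 0, 2, 15, 38 and 25 features at T0, T12, T24, T60 and 96 h. The largest change at each time was that of Ring1 at T0 (0.17), Cbx7 at T12 (-0.16), Rnf2 at T24 (-0.13), Cbx2 at T60 (-0.24) and Jarid2 at 96 h (-0.15), with adjusted p between 0.0661 and 0.806. For Cbx2 at T60, the dPOLE4 libraries measured 93.3, 95.01 and 101.8 CPM, below the 123.2, 105.7 and 117.2 CPM of Ctrl, and the adjusted p was 0.0661.

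In the MCM2-2A background POLE4 depletion also gave 0 DE members in 50 tests by edgeR and by DESeq2, with 12 tests at an unadjusted p below 0.05 (among all features 13.5%, 17.6%, 21.1%, 23.3% and 11.5%). Between 0.0715% and 2.25% of features were DE (0.0715% at T0, 0.404% at T12, 1.02% at T24, 2.25% at T60 and 0.304% at 96 h). With the replicate block these were 143 features in place of 13 at T0, 288 in place of 188 at T24 and 307 in place of 53 at 96 h, with 0 members among them. DESeq2 called 73, 115, 206, 503 and 114 features at T0, T12, T24, T60 and 96 h. The largest change of the members at T0, T12, T24 and 96 h was that of Jarid2, in each case toward lower RNA. At T0 the dPOLE4 MCM2-2A libraries measured 681.6, 639.3 and 633.6 CPM of Jarid2 against 822.8, 786 and 794.7 CPM in Ctrl MCM2-2A, a log2 fold change of -0.29 (SE 0.0713, adjusted p = 0.0983). At T12 the values were 551.7, 524.6 and 521.9 against 688, 676.5 and 704.9 CPM, a change of -0.37 (SE 0.0537, adjusted p = 0.00437) that was under the size cutoff and the single one with an adjusted p below 0.01, which 0.863% of features reached. It was -0.25 at T24 (adjusted p = 0.0169). After 96 h the change was -0.32 (adjusted p = 0.136). At T60 the sign was the opposite, with 372.7, 361.7 and 361.4 against 321.8, 303.9 and 305.5 CPM (log2 fold change 0.24, adjusted p = 0.0321). At none of these 5 times did the groups overlap for Jarid2. Of the 10 members, Jarid2 included, 2, 3, 2, 7 and 1 did not overlap at T0, T12, T24, T60 and 96 h. The share of all features without overlap was not counted, so these counts do not set the members apart from other features. The largest change at T60 was that of Mtf2, with 239.9, 223.7 and 255.9 CPM against 200.8, 187.1 and 182.4 CPM (0.34, SE 0.0705, adjusted p = 0.0131), and for Cbx2 the values were 66.94, 70.49 and 61.59 against 86.35, 79.61 and 80.78 CPM (-0.31, adjusted p = 0.023). These groups did not overlap either.

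**Figure D4:**
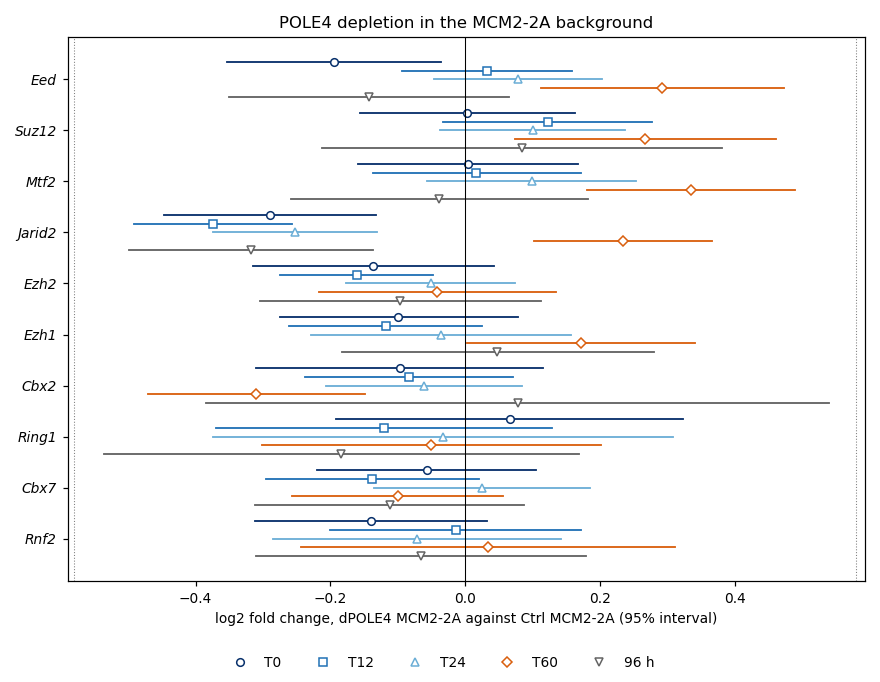
Log2 fold change of dPOLE4 MCM2-2A against Ctrl MCM2-2A (x axis) with 95% intervals for the 10 members at 5 times. Open symbols are not DE (all 50 are open), and dotted lines mark 0.58 in either direction. Jarid2 lies below 0 at T0, T12, T24 and 96 h (-0.25 to -0.37) and above 0 at T60 (0.24).

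Whether POLE4 depletion acted differently in the 2 backgrounds was tested for each time with all 4 groups in 1 fit. In edgeR and DESeq2 0 of 50 tests were DE, and 6 had an unadjusted p below 0.05 (among all features 5.39%, 7.4%, 8.81%, 10.1% and 3.7%). Over all features 0.00526%, 0.0159%, 0.0351%, 0.1% and 0% were DE in edgeR at T0, T12, T24, T60 and 96 h. DESeq2 called 10, 20, 28, 81 and 1 features at these times. For Jarid2 the difference was -0.23 at T0, -0.31 at T12 (SE 0.0662, adjusted p = 0.138), -0.29 at T24 (adjusted p = 0.178), 0.10 at T60 and -0.16 at 96 h, so that an effect on Jarid2 particular to MCM2-2A cells was not shown. The largest differences at T60 and 96 h were those of Mtf2 (0.28, adjusted p = 0.248) and Suz12 (0.19, adjusted p = 1).

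The line with MCM2-2A differed from the WT line mainly in Suz12 and Cbx7. In Ctrl cells 10 of 50 tests were DE, 5 of Suz12, 4 of Cbx7 and 1 of Mtf2. Among all features 18.9%, 14.5%, 17.3%, 16.9% and 15.7% were DE at T0, T12, T24, T60 and 96 h, and of the 10 members 2, 2, 2, 3 and 1 were, so that their share was near that of all features. At T0 Suz12 measured 249.7, 250.3 and 260.2 CPM in Ctrl MCM2-2A against 506.9, 501.4 and 504.9 CPM in Ctrl (log2 fold change -1.01, SE 0.0507, adjusted p = 7.96e-08). At T12, T24, T60 and 96 h it was -0.89, -0.97, -0.67 and -1.17, and the groups overlapped at no time. Cbx7 measured 353.4, 347.7 and 335.8 CPM in Ctrl MCM2-2A against 214.6, 221.6 and 220.8 CPM in Ctrl at T0, with a log2 fold change of 0.64 (SE 0.0469, adjusted p = 9.16e-07). It was DE at T12, T24 and T60 (0.65, 0.63 and 0.73) but not at 96 h (0.47, adjusted p = 0.00091), and without Ctrl MCM2-2A T12 replicate 3 its value at T12 was 0.57 and not DE. Its paralogue Cbx2 was at -0.07, -0.29, -0.38 and -0.48 at T0, T12, T24 and T60, not DE, and without Ctrl MCM2-2A T0 replicate 3 the first was 0.01. Mtf2 was DE at T60 (0.61, SE 0.0594, adjusted p = 1.25e-06), with 200.8, 187.1 and 182.4 CPM against 124.6, 125.8 and 126.3 CPM, and at 0.58 just under the cutoff without Ctrl MCM2-2A T60 replicate 1.

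Suz12 and Cbx7 lie on chromosomes whose genes differed between the lines as a whole. At T0 the median log2 fold change of 1390 genes on chromosome 11 was -0.48 (80.4% lower) and that of 678 genes on chromosome 15 was 0.56 (13% lower). Genes within 2 Mb of Suz12 had a median of -0.54 (55 genes) and those within 2 Mb of Cbx7 a median of 0.66 (96 genes). The other members on chromosome 11, Ezh1 (-0.30) and Cbx2 (-0.07), lay above its median. Relative to the median of its chromosome Suz12 was at -0.53, -0.38, -0.48, -0.12 and -0.67 at T0, T12, T24, T60 and 96 h, and Cbx7 was at 0.09, 0.14, 0.11, 0.26 and -0.06. Of the 10 calls, 1 stayed past the size cutoff on this scale, that of Suz12 at 96 h. The adjusted p was that of the original test, and no separate test against the chromosome was run. For Mtf2 on chromosome 5, whose median was 0.03 at T60, the value was 0.58 in place of 0.61, just under the cutoff. The part of the chromosome in the values of Suz12 and Cbx7 was not tested beyond this.

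**Figure D5:**
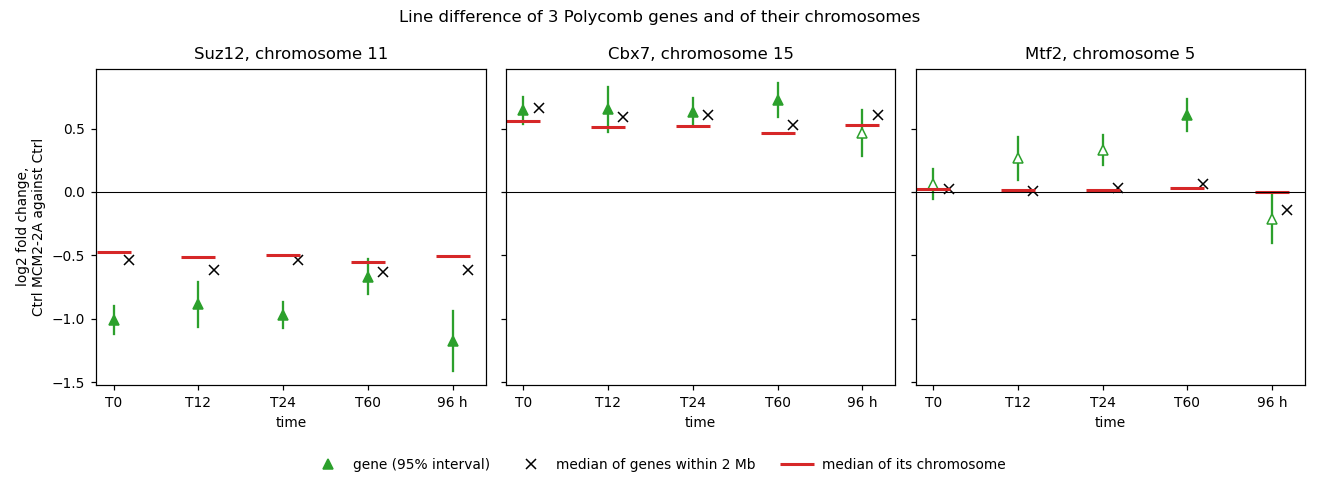
Log2 fold change of Ctrl MCM2-2A against Ctrl (y axis) for Suz12, Cbx7 and Mtf2 at 5 times, with 95% intervals (triangles, filled where DE), the median of genes within 2 Mb (crosses) and the median of the chromosome (bars). Suz12 lies below the bar of chromosome 11 at T0, Cbx7 lies near the bar of chromosome 15, and Mtf2 departs from that of chromosome 5 at T60.

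With POLE4 depleted in both lines, 7 of 50 tests were DE. Suz12 was lower in dPOLE4 MCM2-2A than in dPOLE4 at T0, T12, T24 and 96 h (-0.92, -0.88, -0.84 and -0.99), where 18.6%, 18.4%, 16.1% and 16.4% of features were DE, and at -0.47 not DE at T60, where 20.4% were. Cbx7 was DE at T12 (0.68) and T24 (0.58), and the latter was lost without T24 replicate 1 or 3 of dPOLE4 or T24 replicate 2 of dPOLE4 MCM2-2A (0.49 to 0.56). It was also lost, at 0.58 just under the cutoff, with the replicate block and in DESeq2. At T0 Cbx7 was at 0.56 and not DE, and at 0.61 and DE without dPOLE4 MCM2-2A T0 replicate 3. Cbx2 was at -0.36, -0.50 and -0.55 at T12, T24 and T60, not DE, and the last was -0.60 and DE without dPOLE4 MCM2-2A T60 replicate 2. Mtf2 was DE at T60 (0.88, SE 0.0725, adjusted p = 8.23e-07), with 239.9, 223.7 and 255.9 CPM in dPOLE4 MCM2-2A against 137.8, 132.1 and 120.1 CPM in dPOLE4, and it was the 1 call of 7 that stayed past the size cutoff relative to the chromosome median (0.85). Other Polycomb genes differed between the Ctrl lines at T60 in 3 of 8 PRC2 genes, all lower (median -0.45, against 0.01 over all features), 2 of 23 PRC1 genes, both lower, 1 of 12 antagonists, higher, and 4 higher and 1 lower of 12 developmental genes, where 16.9% of features were DE. These genes were not set against the median of their chromosomes.

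After 96 h in stem cell conditions the line difference of Suz12 was also found. Libraries of the separate experiments were normalised apart and not compared by a test. Suz12 was 507 ± 30.8 CPM in Ctrl and 223 ± 37.0 CPM in Ctrl MCM2-2A, and Jarid2 was 848 ± 34.9 and 799 ± 58.1 CPM. Cbx7 was 217 ± 12.1 and 296 ± 26.2 CPM and Ezh1 was 46.8 ± 5.19 and 31.8 ± 4.09 CPM. Ezh1 was at -0.53 between the lines at 96 h (SE 0.116, adjusted p = 0.00318), not DE, and at -0.62 and DE without Ctrl replicate 1 or Ctrl MCM2-2A replicate 2. In dPOLE4 cells it was at -0.57 (adjusted p = 0.000175), not DE, and called by DESeq2 (-0.59), without dPOLE4 replicate 1 (-0.61) and without dPOLE4 MCM2-2A replicate 1 (-0.59) or 3 (-0.59). The median of chromosome 11, which holds Ezh1, was -0.51 in both comparisons, and Ezh1 lay at -0.02 and -0.06 relative to it.

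Over the 16 groups of T0 and RA, members shared some of their course. Between group means of log2 CPM, the highest values of Pearson's r were 0.91 for Eed and Jarid2, 0.84 for Jarid2 and Mtf2 and 0.84 for Ezh2 and Jarid2, and the lowest was -0.92 for Mtf2 and Cbx2. These groups share time points and lines. Among 11826 genes the most similar course to Eed was that of Klf9 (r = 0.988) and Spry2 (0.987), to Suz12 that of Psmd12 (0.988) and Utp6 (0.984), both on chromosome 11, to Jarid2 that of Nob1 (0.985) and Mrps31 (0.98), and to Mtf2 that of Ppif (0.985) and Zfp961 (0.984). For Ezh2 it was Wbp11 (0.97) and Slfn9 (0.967), for Ezh1 Helz (0.93) and Fars2 (0.915), for Rnf2 Fem1c (0.923) and Hipk1 (0.883), for Ring1 Lzts2 (0.985) and Pygb (0.982), for Cbx2 H13 (0.983) and Ankrd50 (0.981), and for Cbx7 Rnf31 (0.963) and Vps28 (0.96).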

How the data were processed

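RNA-seq was done in 60 libraries of 20 groups with 3 libraries each. The authors trimmed reads with cutadapt 4.2, aligned them to mm10 with STAR, keeping multiple alignments, and deposited raw counts per gene (GENCODE M25) and repeat subfamily, without pooling replicates, in 1 table of 48 libraries and 1 of 12 (96 h). Groups were taken from sample titles, whose RA times (12, 24 and 60 h) differ from those in the treatment protocol. Symbols and positions came from GENCODE M21.

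Counts were filtered (filterByExpr, at least 10 counts, 15 in total), scaled by TMM and tested with edgeR 4.0.16 (quasi-likelihood) in R 4.3.3. P-values were adjusted (Benjamini-Hochberg) over all features tested, and DE required an adjusted p below 0.01 and a log2 fold change above 0.58 in size. Each comparison used its own groups, RA courses the 4 times of 1 kind of cell, and differences the 4 groups concerned. DESeq2 1.42.0 was an alternative. In simulated counts for dPOLE4 against Ctrl at T0 (17544 features), 87 of 100 genes changed by a log2 of 1 were recovered, with 3 false calls. For the difference in POLE4 effect at T0, 73 of 100 were recovered, with 4 false calls. For Ctrl T60 against T0, 79 of 100 were recovered, with 1 false call. Changes below a log2 of 1 were not simulated, so these recoveries do not cover the smaller changes of members after POLE4 depletion.

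CPM are TMM-scaled, and RPKM also divide by the length of all annotated exons of a gene joined. The order of members and the shares of paralogues rest on this length. Values of members were stated where they were DE, the largest of a comparison or the paralogue of a DE member. From other lists, the 3 DE genes with the largest change at T60 in Ctrl were named, except 1 that is not reported here. Members and lists were chosen with earlier results of these data known. The study's methods call the 3 libraries of a group biological replicates.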

Additional observations from a re-analysis of the deposited data

Results flagged for a closer look

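In 4 cases the RA response (T60 against T0) of a member differed between cells in a test of the difference itself at an adjusted p below 0.01 (edgeR), each under the size cutoff. Between Ctrl MCM2-2A and Ctrl the difference of log2 fold changes was -0.431 for Ezh2, 0.522 for Mtf2 and -0.439 for Cbx2. Between dPOLE4 MCM2-2A and Ctrl MCM2-2A it was 0.519 for Jarid2, whose RNA was lower after POLE4 depletion at T0 (-0.29) and higher at T60 (0.24), neither with an adjusted p below 0.01.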

How the results depend on the processing

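Calls of members, counted over the comparisons of a kind, were 0 for POLE4 depletion in the WT background, 0 in the MCM2-2A background, 10 and 7 between the lines in Ctrl and dPOLE4 cells, 41 for the RA response, 0 for the difference in POLE4 effect and 0 for the difference in RA response. Without the fold change cutoff they were 0, 1, 22, 22, 87, 0 and 4. Relative to the chromosome median, 1 and 1 of the line differences stayed past the size cutoff (with the adjusted p of the original test). Leaving out 1 library gave 0 to 0, 0 to 0, 9 to 11, 6 to 8, 39 to 46, 0 to 0 and 0 to 1 calls, the 46 without dPOLE4 MCM2-2A T60 replicate 3 and the 1 (Mtf2, 0.59) without Ctrl MCM2-2A T60 replicate 3. DESeq2 gave 0, 0, 10, 7, 40, 0 and 0, and 40 was also the count with DESeq2 size factors in edgeR, without a filter, with a minimum of 10 counts per library and with all 48 libraries in 1 fit for the RA response. With these, Ring1 in Ctrl from T24 to T60 (0.56 to 0.58 under both filters and with all 48 libraries) and Eed in dPOLE4 (-0.57 under DESeq2 and its size factors) were lost.

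With the replicate number as a block the counts were 0, 0, 10, 6, 41, 0 and 0. The call lost was Cbx7 between dPOLE4 lines at T24 (0.58, also 0.58 in DESeq2). Same-numbered libraries correlated over 0.1 in every pair in 10 of 20 comparisons, with mean r between -0.189 and 0.387, and in the other 10 the libraries shared only a number.

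Signs turned only for values that were not DE. Cbx2 between the lines relative to its chromosome was 0.409, 0.219, 0.117 and 0.07 at T0, T12, T24 and T60 in Ctrl cells and 0.127 and 0.01 at T12 and T24 in dPOLE4 cells, and without 1 library its value at T0 lay between -0.156 and 0.011, the latter without Ctrl MCM2-2A T0 replicate 3. Cbx7 from T0 to T60 in Ctrl MCM2-2A was -0.016 with all 48 libraries and between -0.019 (without T0 replicate 3) and 0.042 without 1 library, and in dPOLE4 MCM2-2A it was between -0.116 and 0.013 (without T60 replicate 3). The causes were not tested. With 3 libraries a group, changes of low genes such as Ring1 had the widest errors.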
